A study of Astyanax mexicanus with 22 samples.

Results

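The starvation response of surface fish ovaries was compared between the old and the new batch of the study, as the difference of the change in each batch: old starved minus old control, less new starved minus new control. This comparison rests on the 10 surface fish libraries of 22 in the series, which are 2 old starved, 4 old control, 2 new starved and 2 new control libraries. The other 12 libraries came from Pachón cavefish, with 4 old starved, 4 old control, 2 new starved and 2 new control. All are bulk RNA sequencing libraries of the right ovary of Astyanax mexicanus, a fish with an eyed river form (surface fish) and blind cave forms, and all are labelled wild type. Fish were either starved or labelled non-treated, which is called control here. The titles call the batches old and new, and the series design gives 2 ages, about 500 and 1200 days post fertilization. Which batch had which age, what else set the batches apart and how long fish were starved are not known from the sources used here. Batch, age and any other difference between the batches therefore cannot be told apart. No label says that the replicates of a group were separate fish, and the p-values then measure only the spread between these samples.

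The fish ovary is made of oocytes at successive stages, each wrapped in granulosa and theca cells, and of a stroma with matrix, smooth muscle, vessels, nerves and immune cells. Yolk and egg coat are costly to make, and ovaries of fasted fish can stop follicle growth and resorb follicles. Follicles resorb with a breakdown of the basement membrane, the sheet of matrix between granulosa and theca cells. In bulk tissue, fewer cells of a type and less RNA per cell cannot be told apart.

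The surface libraries held 5026613 to 7171861 counts in genes, and 15607 of 27420 genes were abundant enough to be tested. New starved replicate 2 stood apart from the other 9 surface libraries in several measures. Its normalization factor was 0.833 (0.969 to 1.05 in the others), its most abundant gene took 1.06% of counts (0.364% to 0.676%), and reads without a feature made up 15.9% (17.0% to 18.4%). On the second principal component of the surface libraries (22.5% of the variance) it lay at -91.9, with the next lowest library at -19.5. On the third (11.1%) new starved replicate 1 stood apart, at 63.3, with the other surface libraries at -29.5 to 17.2. The new starved pair had a chi-square of 36.4 per degree of freedom between its members, against 7.46 to 11.8 in the other surface pairs. The median SD of log2 CPM was 0.373 in new starved, 0.154 in old starved, 0.235 in old control and 0.163 in new control libraries. Neither value shows which member of the new starved pair differed. CPM stands for counts per 1000000 gene counts after normalization. The share of multimapping reads was 8.15% and 7.91% in old starved against 10.8% to 14.7% in old control libraries, and 8.66% and 10.8% in new starved against 11.4% and 13.8% in new control libraries. Its part in the results was not tested.

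The response differed between batches in 55 genes, 0.352% of those tested (edgeR quasi-likelihood test over all 22 libraries, Benjamini-Hochberg adjusted p under 0.05, here termed called). In 29 genes (0.186%) the response was higher in old minus new, and in 26 (0.167%) it was lower, while 1549 genes (9.93%) had an unadjusted p under 0.05. Starvation itself called 23 genes in the old batch (0.147%), 4 higher (0.0256%) and 19 lower (0.122%), and 652 genes in the new batch (4.18%), 241 higher (1.54%) and 411 lower (2.63%). All these counts use a spread estimated together with the Pachón libraries. In edgeR on the 10 surface libraries alone, whose common dispersion was 0.0742 against 0.0501 over all 22, the batch difference gave no calls, 0 genes (941 had an unadjusted p under 0.05, and the smallest adjusted p was 0.168). Voom with sample weights, which gave the new starved libraries weights of 0.322 and 0.26 against 0.831 to 1.28 for the other surface libraries, also called 0 (651 at an unadjusted p under 0.05, smallest adjusted p = 0.13), and DESeq2 called 193, with 53 of the 55 among them. The calls below therefore hold for the fit over all libraries, and none of them was made on the surface libraries alone.

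In most of the 55 genes the response was larger in the new batch than in the old one. The responses are parts of the contrast that chose these genes. Their signs and sizes below therefore describe the choice and are no separate support. All 29 genes called higher had a negative response in the new batch, and in 28 of them that response was itself called, while the old response was called in 1. Of the 26 genes called lower, 25 had a positive response in the new batch, 20 of these being called, and the old response was called in 3. The median size of the response in the 55 genes was 0.38 in the old batch and 1.99 in the new batch on the log2 scale, against 0.24 and 0.34 over all genes tested. Genes were also sorted by the 1 group without which the other 3 group means (log2 CPM) spanned the smallest range. This description was chosen after the values were seen. Of the 55 genes it put new control apart in 29 (52.7%), new starved in 20 (36.4%), old starved in 5 (9.09%) and old control in 1 (1.82%). Over all genes tested these shares were 31.7%, 31.6%, 19.2% and 17.5%.

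**Figure D1:**
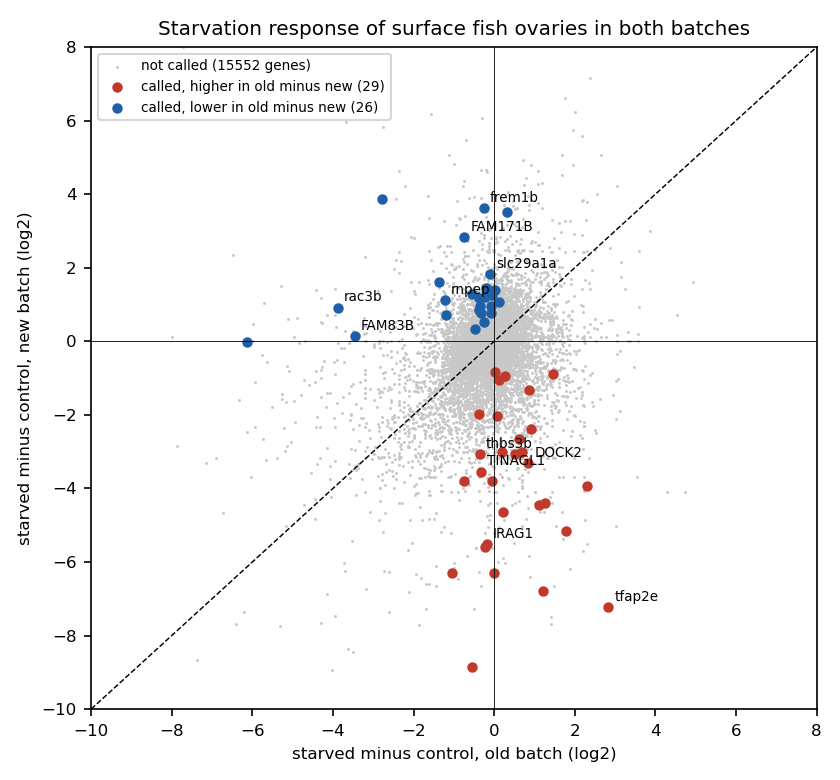
Starved minus control (log2, edgeR) in the old batch (x axis) and the new batch (y axis) for the 15607 genes tested, with genes of equal response on the dashed line. The 29 genes called higher in old minus new (red) lie below the line at negative new-batch values, and most of the 26 called lower (blue) lie above it near 0 on the old-batch axis.

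The named genes are given by what each is known to do, which is no test of a theme. Of the genes called higher in old minus new, thbs3b (ENSAMXG00000017055) encodes a thrombospondin, a secreted matrix glycoprotein. The fixed list of stroma and extracellular matrix had 0 of 21 genes called, and frem1b, a basement membrane gene described further on, was called lower. The thbs3b gene had 39.2 and 34.6 CPM in old starved, 55.8, 30.1, 53.8 and 50.6 CPM in old control, 5.15 and 7.51 CPM in new starved, and 64.5 and 41.3 CPM in new control libraries. Only the new starved libraries were low, and the old groups overlapped. The response was -0.36 ± 0.20 in the old batch (edgeR adjusted p = 0.446) and -3.08 ± 0.27 in the new batch (5.13e-06), a difference of 2.71 ± 0.33 (log2 ± SE, edgeR adjusted p = 0.000926) that stayed called in all 22 fits without 1 library. TINAGL1 (ENSAMXG00000014689) encodes a basement membrane protein related to the tubulointerstitial nephritis antigen. It had 1.15 and 3.31 CPM in old starved, 3.14, 2.89, 3.05 and 2.04 CPM in old control, 2.74 and 1.93 CPM in new starved, and 26.6 and 29.0 CPM in new control libraries. Pachón group means lay at 27.1 to 34.6 CPM, and among the surface libraries only new control was at that level. The other 8 surface libraries lay at 3.31 CPM or less. The difference was 3.21 ± 0.44 (edgeR adjusted p = 0.00216), and the call was lost without old starved replicate 2 (2.30, edgeR adjusted p = 0.177).

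The gene of agrin, a large heparan sulfate proteoglycan of basement membranes, was also highest in new control among the surface libraries. Its levels (agrn, ENSAMXG00000012767) were 1.73 and 4.42 CPM in old starved, 3.14, 4.57, 6.87 and 6.13 CPM in old control, 1.45 and 1.07 CPM in new starved, and 16.4 and 19.8 CPM in new control libraries. Pachón group means of agrn lay at 10.1 to 16.5 CPM. In surface fish the new groups were well separated and the old groups overlapped. The difference was 3.05 ± 0.62 (edgeR adjusted p = 0.036). It stayed called in 12 of the 22 fits without 1 library, and adjusted p was 0.0636 without new starved replicate 2 and 0.311 (difference 2.25) without old starved replicate 2. Outside the rule for named genes, and picked after their values were seen, were NID1 (nidogen, a linker of basement membranes) at 0.86 ± 0.17 and col28a1a (a collagen XXVIII chain) (edgeR adjusted p = 0.0358 for each). NID1 had 75.0 and 71.7 CPM in old starved, 65.0, 80.7, 75.9 and 65.6 CPM in old control, 72.1 and 71.3 CPM in new starved, and 118 and 137 CPM in new control libraries, so that again new control stood alone. For col28a1a there were 2 counts in new starved and 267 in new control libraries, a control over starved ratio of 120 (exact 95% interval 32.9 to 996). NID1 stayed called in 14 of the 22 fits (highest adjusted p = 0.138, without new control replicate 2) and col28a1a in 16 (0.266, without old starved replicate 1). Such intervals cover counting error only.

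DOCK2 (ENSAMXG00000016177), an activator of the GTPase Rac that drives leukocyte movement in mammals, had 4.75 and 7.89 CPM in old starved, 3.66, 2.74, 2.099 and 5.45 CPM in old control, 3.22 and 1.72 CPM in new starved, and 27.1 and 23.3 CPM in new control libraries. Pachón group means of DOCK2 lay at 5.22 to 8.14 CPM, below the new control surface libraries. Among the surface libraries new control was above every other one, and the old groups overlapped. The response was 0.85 ± 0.34 in the old batch (edgeR adjusted p = 0.275) and -3.32 ± 0.42 in the new batch (0.000307). Their difference of 4.17 ± 0.53 (edgeR adjusted p = 0.00125) was called in all 22 fits that left out 1 library. The actin regulator gene kank2 (ENSAMXG00000032971) had 4.18 and 4.42 CPM in old starved, 2.13 to 4.54 CPM in old control, 2.90 and 0.644 CPM in new starved, and 15.6 and 15.4 CPM in new control libraries. Its Pachón group means lay at 1.71 to 3.01 CPM. The surface difference was 3.57 ± 0.72 (edgeR adjusted p = 0.0358). It stayed called in 12 of the 22 fits, with adjusted p = 0.0613 without new starved replicate 2 and a highest of 0.109 without old starved replicate 2.

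The myosin chaperone gene unc45b (ENSAMXG00000010834) shows how 1 library can carry a value. It had 4.75 and 3.95 CPM in old starved, 2.28 to 5.34 CPM in old control, 1.13 and 0.644 CPM in new starved, and 4.57 and 41.5 CPM in new control libraries. Only new control replicate 2 was high. The difference of 4.86 ± 1.01 (edgeR adjusted p = 0.0415) was 2.54 without that library (0.288), and it stayed called in 6 of the 22 fits.

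The adrenomedullin gene adma (ENSAMXG00000042978), whose peptide widens vessels, had 0.576 and 3.16 CPM in old starved, 0.872, 2.28, 4.77 and 0.851 CPM in old control, 1.13 and 0.644 CPM in new starved, and 60.9 and 28.8 CPM in new control libraries. Pachón group means lay at 0.848 to 2.03 CPM. Among the surface libraries new control stood alone, and the difference was 5.37 ± 1.05 (edgeR adjusted p = 0.0315). It was lost without old starved replicate 2 (3.73, 0.456), new control replicate 1 (4.73, 0.105) or new starved replicate 2 (5.04, 0.0551).

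IRAG1 (ENSAMXG00000031482), a substrate of cGMP-dependent kinase that dampens calcium release in mammalian smooth muscle, had 45.9 and 5.21 CPM in old starved, 29.6, 31.5, 27.1 and 28.3 CPM in old control, 0.322 and 1.29 CPM in new starved, and 43.5 and 27.1 CPM in new control libraries. The new starved libraries were lowest, and old starved replicate 2 was also below every control. The difference of 5.33 ± 0.93 (edgeR adjusted p = 0.0144) was 3.02 without old starved replicate 1 (0.0575). PDE1C, a phosphodiesterase of cyclic nucleotides and a symbol found on 2 gene rows (ENSAMXG00000001277 here), had 20.4 and 16.6 CPM in old starved, 14.8 to 24.1 CPM in old control, 0.483 and 2.58 CPM in new starved, and 12.7 and 28.2 CPM in new control libraries. New starved libraries were again the low ones, with a difference of 3.74 ± 0.71 (edgeR adjusted p = 0.0279) that was lost without new control replicate 2 (0.118), old starved replicate 1 (0.0672) or old starved replicate 2 (0.0581).

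The cation channel gene trpc1 (ENSAMXG00000015165) had 29.8 and 39.1 CPM in old starved, 13.7 to 31.2 CPM in old control, 0.966 and 1.72 CPM in new starved, and 4.74 and 11.98 CPM in new control libraries. All new libraries lay below all old ones, and starved libraries were the lowest of the new batch. Its difference was 3.27 ± 0.63 (edgeR adjusted p = 0.0293), lost without new control replicate 2 (0.157) or old starved replicate 2 (0.109).

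The fitted difference was greatest for tfap2e (ENSAMXG00000031505), a transcription factor gene of the AP-2 family. It had 10.5 and 5.21 CPM in old starved, 1.22, 0.00, 1.53 and 1.70 CPM in old control, 0.161 and 0.00 CPM in new starved, and 22.5 and 11.2 CPM in new control libraries. Starved libraries were above controls in the old batch and below them in the new batch, with no overlap in either. The difference was 10.06 ± 1.87 (edgeR adjusted p = 0.0236), a fitted value that depends on the prior count and is no bound. New starved libraries held 1 count against 202 in new control, a control over starved ratio of 182 (exact 95% interval 32.2 to 7207). The call was lost without new starved replicate 2 (0.0639), new control replicate 1 (0.0569) or old starved replicate 1 (0.0531). The scaffold gene anks1b (ENSAMXG00000015871) had 2.30 and 2.21 CPM in old starved, 1.57 to 2.29 CPM in old control, 0.322 and 0.429 CPM in new starved, and 2.37 and 3.89 CPM in new control libraries. New starved libraries alone were low, and the difference was 3.21 ± 0.63 (edgeR adjusted p = 0.0321), called in 17 of the 22 fits, with a highest adjusted p of 0.116 without new control replicate 2.

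**Figure D2:**
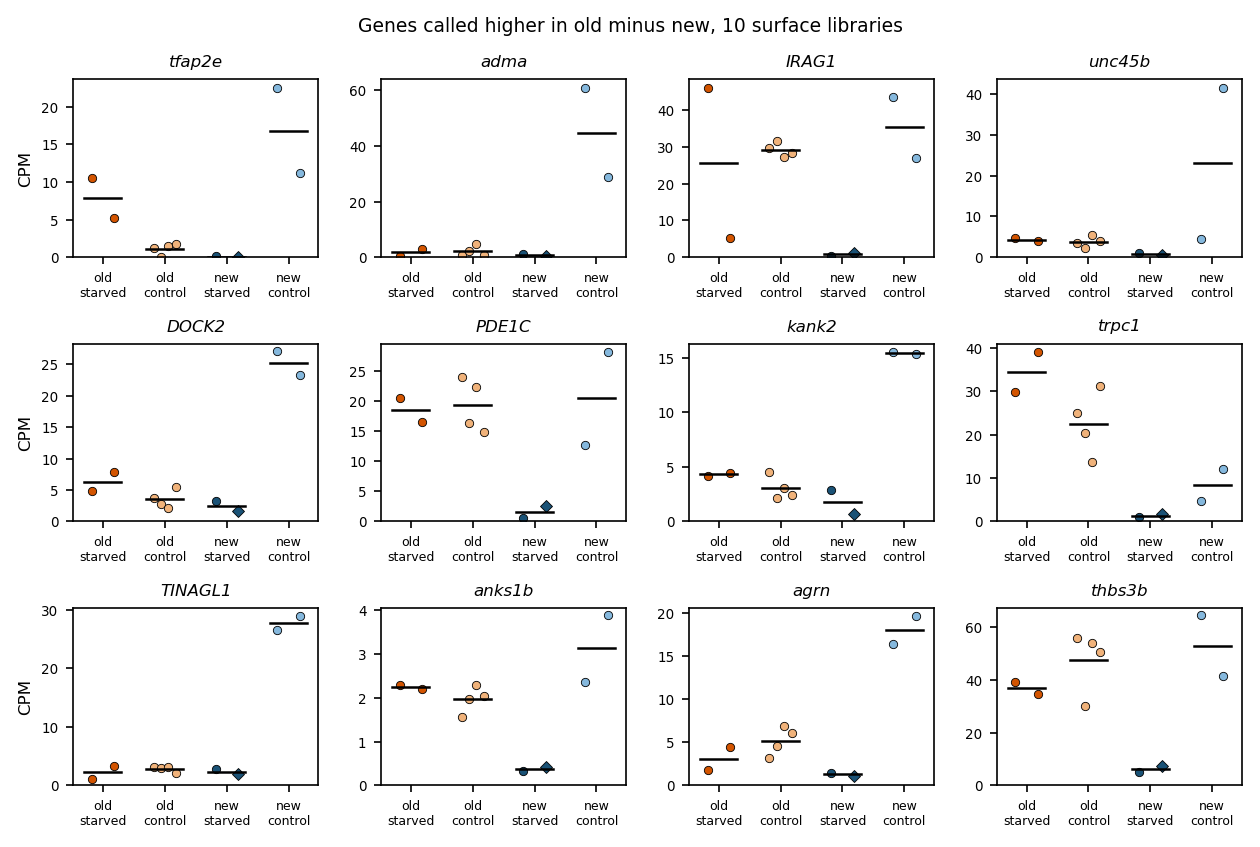
CPM (y axis, linear from 0) of the 12 named genes called higher in old minus new, in the old starved, old control, new starved and new control surface libraries (points, with group means as lines and new starved replicate 2 as a diamond). New control libraries stand alone at the top for adma, DOCK2, kank2, TINAGL1 and agrn, and new starved libraries stand alone at the bottom for thbs3b, PDE1C and anks1b.

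Among the genes called lower in old minus new, rac3b and FAM83B were the named genes with a called response in the old batch. The small GTPase gene rac3b (ENSAMXG00000031264), of the Rac family that shapes actin, had 0.432 and 0.474 CPM in old starved, 5.75, 6.24, 10.5 and 5.28 CPM in old control, 7.40 and 6.87 CPM in new starved, and 1.86 and 5.67 CPM in new control libraries. Only the old starved libraries were below 1 CPM. It fell in the old batch by 3.88 ± 0.59 (edgeR adjusted p = 0.0139), and its response in the new batch was 0.92 ± 0.50 (0.301). The difference was -4.79 ± 0.78 (edgeR adjusted p = 0.00876), lost without old starved replicate 2 (0.0571).

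FAM83B (ENSAMXG00000035047), a member of a family of scaffolds in growth factor and casein kinase signalling, had 1.30 and 2.53 CPM in old starved, 23.5, 27.4, 10.7 and 21.97 CPM in old control, 41.4 and 35.0 CPM in new starved, and 37.9 and 31.4 CPM in new control libraries. The old starved libraries were the lowest by far, and the new groups overlapped. It fell in the old batch by 3.46 ± 0.40 (edgeR adjusted p = 0.000905), against 0.14 ± 0.31 in the new batch (0.833). The difference of -3.60 ± 0.51 (edgeR adjusted p = 0.00385) was called in all 22 fits that left out 1 library.

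Genes low in new control libraries made up most of the other named genes called lower. The gene frem1b (ENSAMXG00000017882), of a basement membrane protein of the Fraser complex, had 46.7 and 16.6 CPM in old starved, 32.4, 31.5, 33.2 and 54.5 CPM in old control, 74.0 and 55.4 CPM in new starved, and 5.41 and 5.02 CPM in new control libraries. New control was the lowest group, and the old groups overlapped. Its response was -0.26 ± 0.35 in the old batch (edgeR adjusted p = 0.789) and 3.63 ± 0.46 in the new batch (0.000307), a difference of -3.89 ± 0.58 (edgeR adjusted p = 0.00431). FAM171B, a membrane protein gene with a symbol on 2 gene rows (ENSAMXG00000003418 here), had 14.8 and 22.9 CPM in old starved, 29.5, 29.9, 42.7 and 24.9 CPM in old control, 21.7 and 21.9 CPM in new starved, and 2.71 and 3.40 CPM in new control libraries. Old starved libraries were below all old controls, and new starved libraries above both new controls. The difference was -3.58 ± 0.42 (edgeR adjusted p = 0.000908), and frem1b and FAM171B were both called in all 22 fits that left out 1 library.

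The sorcin gene sri (ENSAMXG00000043352), a calcium-binding partner of ryanodine receptors, had 31.5 and 34.2 CPM in old starved, 34.4, 44.0, 32.2 and 41.0 CPM in old control, 48.4 and 69.3 CPM in new starved, and 23.2 and 20.1 CPM in new control libraries. It rose in the new batch by 1.44 ± 0.19 (edgeR adjusted p = 0.000426), against -0.21 ± 0.16 in the old batch (0.61), a difference of -1.65 ± 0.25 (edgeR adjusted p = 0.00501) called in all 22 fits. The gene trpm4b.2 (ENSAMXG00000021168), of a calcium-activated cation channel family, had 59.0 and 56.2 CPM in old starved, 52.2 to 68.0 CPM in old control, 64.9 and 59.0 CPM in new starved, and 17.1 and 29.6 CPM in new control libraries. The other 8 libraries lay close together, and the difference was -1.39 ± 0.27 (edgeR adjusted p = 0.0279), lost without new control replicate 1 (0.0889) or either old starved replicate (0.0605 and 0.113). NFATC3 (ENSAMXG00000005881), a transcription factor switched on by calcineurin, had 4.46 and 5.05 CPM in old starved, 5.23 to 8.20 CPM in old control, 7.24 and 7.30 CPM in new starved, and 3.04 and 3.40 CPM in new control libraries. Its difference of -1.56 ± 0.32 (edgeR adjusted p = 0.0358) was called in 13 of the 22 fits, with a highest adjusted p of 0.124 without new control replicate 1.

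The equilibrative nucleoside transporter gene slc29a1a (ENSAMXG00000003715) had 59.8 and 67.1 CPM in old starved, 65.4 to 71.5 CPM in old control, 96.2 and 129 CPM in new starved, and 39.9 and 23.6 CPM in new control libraries. The old libraries lay between the new groups, which did not overlap. The difference was -1.92 ± 0.34 (edgeR adjusted p = 0.0144), lost without new control replicate 2 (0.0719) or either old starved replicate (0.0555 and 0.0571). The mRNA cap methyltransferase gene cmtr2 (ENSAMXG00000003128) differed by -1.84 ± 0.35 and the cleavage stimulation factor gene cstf1 (ENSAMXG00000038064) by -1.44 ± 0.24 (edgeR adjusted p = 0.0279 and 0.0128). For cmtr2 the levels were 62.6 and 32.7 CPM in old starved, 59.8 to 80.2 CPM in old control, 76.6 and 81.3 CPM in new starved, and 30.1 and 34.7 CPM in new control libraries. For cstf1 they were 41.2 and 57.3 CPM in old starved, 53.4 to 63.7 CPM in old control, 78.5 and 62.5 CPM in new starved, and 24.7 and 36.4 CPM in new control libraries. New starved libraries lay above new control for each, and the old groups overlapped. The cmtr2 call was lost without either new control replicate (0.0972 and 0.0607) or old starved replicate 2 (0.116), and the cstf1 call without new control replicate 1 (0.0569) or old starved replicate 1 (0.0527).

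The aminopeptidase gene rnpep (ENSAMXG00000024736) and OSBPL10 (ENSAMXG00000020402), an oxysterol-binding protein gene with a symbol on 2 gene rows, had starved and control libraries in opposite order in the batches. For rnpep, levels were 55.9 and 53.0 CPM in old starved, 104 to 171 CPM in old control, 151 and 190.0 CPM in new starved, and 33.3 and 123 CPM in new control libraries. For OSBPL10 they were 52.4 and 21.3 CPM in old starved, 67.5 to 102 CPM in old control, 99.5 and 99.6 CPM in new starved, and 72.1 and 50.4 CPM in new control libraries. Starved libraries lay below controls in the old batch and above them in the new batch for each gene, with no overlap. The differences were -2.35 ± 0.47 and -1.90 ± 0.38 (edgeR adjusted p = 0.0358 and 0.0356). They stayed called in 13 and 15 of the 22 fits, rnpep not without new starved replicate 2 (0.0661), and the highest adjusted p was 0.149 for rnpep without old starved replicate 2 (its difference was -3.57 without new control replicate 2) and 0.141 for OSBPL10 without new control replicate 2.

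**Figure D3:**
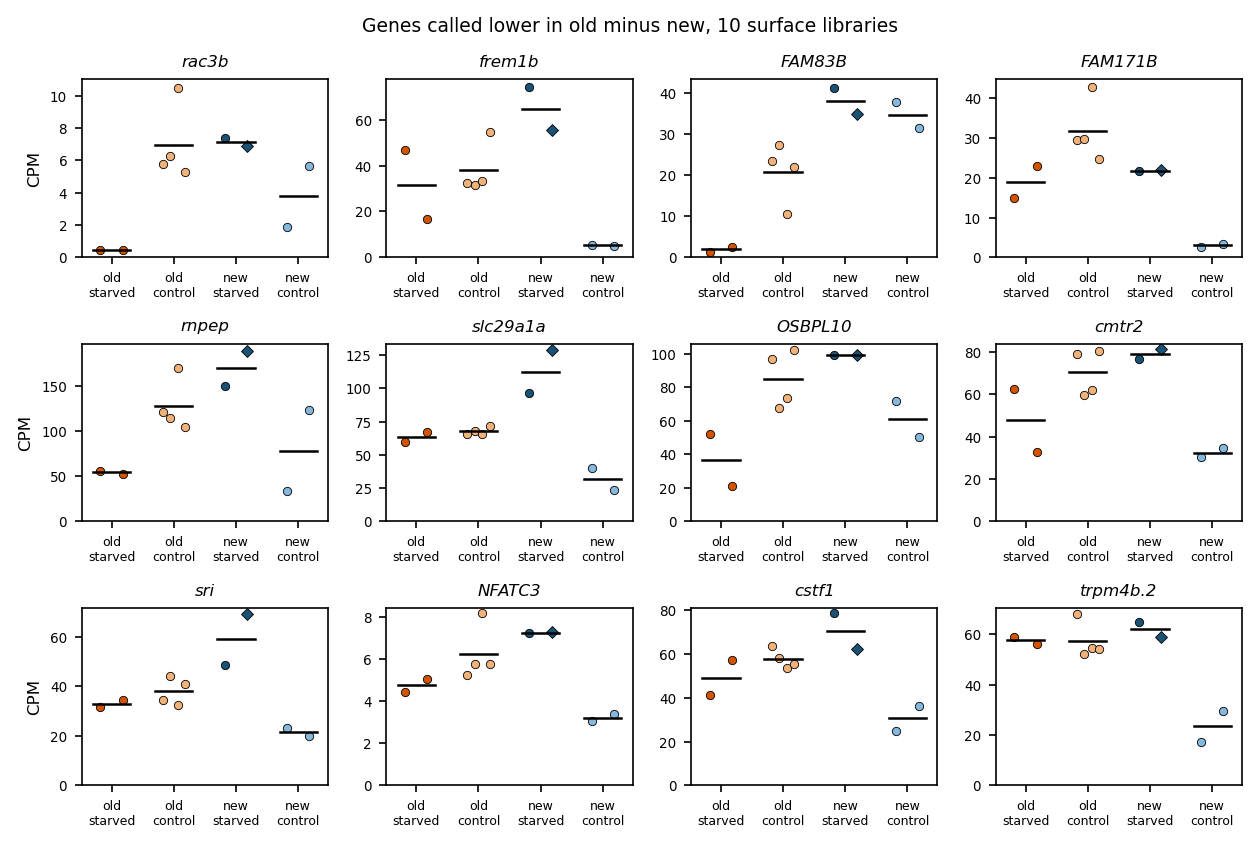
CPM (y axis, linear from 0) of the 12 named genes called lower in old minus new, in the old starved, old control, new starved and new control surface libraries (points, with group means as lines and new starved replicate 2 as a diamond). Old starved libraries stand alone at the bottom for rac3b and FAM83B, and new control libraries for frem1b, FAM171B, slc29a1a, sri, NFATC3 and trpm4b.2.

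Of the 35 gene lists drawn up for the ovary and for fasting, 3 held a called gene, where 0.352% of all genes tested were called. The surface epithelium list had 1 of 19 tested genes called higher and 0 lower, namely grhl2b (ENSAMXG00000040889), an epithelial transcription factor gene. It had 0.72 and 1.74 CPM in old starved, 0.698, 1.98, 1.91 and 0.341 CPM in old control, 0.161 and 0.215 CPM in new starved, and 15.2 and 17.3 CPM in new control libraries. New control stood alone, with 2 counts in new starved against 197 in new control libraries, a control over starved ratio of 88.5 (exact 95% interval 24.2 to 736) and a difference of 6.29 ± 1.31 (edgeR adjusted p = 0.0415). It stayed called in 9 of the 22 fits, with adjusted p = 0.0625 without new starved replicate 2 and a highest of 0.255 without old starved replicate 2. Of the same list, the plakin genes ppl (-4.66 ± 1.201) and evpla (-6.16 ± 1.95, and -2.004 without new starved replicate 2) had differences of the other sign that were not called (edgeR adjusted p = 0.115 and 0.234). The 271 tested aquaporins and solute carriers had 1 called higher, the zinc transporter gene SLC30A8, and 1 called lower, slc29a1a. SLC30A8 (ENSAMXG00000021151) had 1.01 and 1.105 CPM in old starved, 0.17 to 0.609 CPM in old control, 0.161 and 0.215 CPM in new starved, and 8.12 and 6.48 CPM in new control libraries, with a difference of 6.93 ± 1.30 (edgeR adjusted p = 0.0298) and a control over starved ratio of 39.5 in the new batch (exact 95% interval 10.6 to 332, from 2 counts in new starved against 88 in new control libraries). It stayed called in 18 of the 22 fits (highest adjusted p = 0.0974, without old starved replicate 2).

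The clock list had 0 of 33 genes called higher and 1 lower, nfil3-5 (ENSAMXG00000025528), of a family of transcription factors that repress clock output. It had 40.2 and 36.9 CPM in old starved, 29.8 to 45.5 CPM in old control, 39.4 and 53.0 CPM in new starved, and 21.5 and 16.8 CPM in new control libraries. Its difference was -1.33 ± 0.27 (edgeR adjusted p = 0.0358), called in 10 of the 22 fits, with adjusted p = 0.062 without new starved replicate 2 and a highest of 0.158 without new control replicate 2. The clock gene per2 differed by 0.99 ± 0.25 and was not called (edgeR adjusted p = 0.102). It had 46.4 and 53.5 CPM in old starved, 46.9 to 52.1 CPM in old control, 32.5 and 34.1 CPM in new starved, and 62.6 and 70.4 CPM in new control libraries.

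The stroma, smooth muscle, granulosa and leukocyte lists had 0 called genes for the batch difference, and their medians lay below 0 in each batch and lower in the new one. The 21 stroma genes had a median response of -1.01 (old batch) and -2.07 (new batch), and a median difference of 0.65 (0.37 without new starved replicate 2), with 16 of 21 above 0. Over all genes tested the median difference was -0.03, with 7358 of 15607 above 0. The 14 smooth muscle genes had -0.77 and -1.66, and a median difference of 0.41 (0.24 without that library, and -0.09 without old starved replicate 2). The 14 granulosa genes had -1.003 and -2.44, with a difference of 0.70 (1.09). The 16 leukocyte genes had -0.86 and -1.71, with a difference of 0.76 (0.58, and 0.01 without new control replicate 1). In the new batch 8 stroma, 4 smooth muscle, 5 granulosa and 2 leukocyte genes were called lower and 0, 1, 0 and 0 higher (2.63% and 1.54% of all genes tested), while none of these genes was called in the old batch. Summed levels of the granulosa list were 28.1 to 29.0 CPM in old starved, 35.3 to 78.0 CPM in old control, 24.8 to 40.8 CPM in new starved, and 73.6 to 99.6 CPM in new control libraries. Summed levels of the leukocyte list went against its medians in the old batch, with 788 to 791 CPM in old starved and 681 to 767 CPM in old control libraries, and overlapped in the new batch, with 589 to 865 CPM in new starved and 662 to 671 CPM in new control libraries. For smooth muscle the sums were 154 to 162 CPM in old starved, 144 to 179 CPM in old control, 145 to 174 CPM in new starved, and 203 to 237 CPM in new control libraries, and for stroma 614 to 771, 573 to 876, 487 to 587 and 945 to 966 CPM in the same order of groups. The old groups overlapped for both, and the new groups did not. In Pachón fish the median batch difference was 0.99 for stroma (17 of 21 above 0) and 0.15 for smooth muscle (10 of 14). It was 0.48 for granulosa (11 of 14) and 0.82 for leukocyte genes (12 of 16), against 0.03 over all genes tested. A difference of these lists particular to surface fish was therefore not shown.

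Endothelial and steroid genes had a median well below 0 in the new batch and one near 0 in the old batch. The 10 endothelial genes had a median response of -0.13 (old batch) and -1.65 (new batch), with a difference of 1.33 (1.31 without new starved replicate 2), and the 11 steroid synthesis genes had 0.05 and -1.90, with a difference of 0.37 (1.03). In the new batch 1 gene of each list was called lower. The old steroid median near 0 came from responses of both signs, with 6 of 11 above 0 (3 of 11 in the new batch). An unadjusted edgeR p under 0.05 was found for 5 of the 11 in the old batch and 6 in the new batch (13.6% and 21.9% of all genes tested). The gene cyp19a1a had responses of -2.53 ± 0.73 (old batch) and -3.52 ± 0.73 (new batch), with a difference of 0.99 ± 1.17 (edgeR adjusted p = 0.84). Summed steroid levels were 770 to 820 CPM in old starved and 576 to 759 CPM in old control libraries. In the new batch they lay closer, at 668 to 674 CPM in starved and 678 to 757 CPM in control libraries. Endothelial sums were 18.4 to 45.8, 14.5 to 47.7, 21.9 to 23.3 and 42.0 to 51.8 CPM in the same order of groups. In Pachón fish the median batch difference was 0.351 for endothelial genes (6 of 10 above 0) and 0.245 for steroid genes (8 of 11). Over all genes tested it was 0.034 there. For these lists too, a difference particular to surface fish was not shown. None of these genes was called for the surface difference. The endothelial receptor gene tek came closest, with 2.16 and 1.58 CPM in old starved, 0.681 to 1.34 CPM in old control, 0.322 and 0.00 CPM in new starved, and 1.86 and 2.75 CPM in new control libraries. Its starved libraries lay above controls in the old batch and below them in the new batch, and the difference was 4.39 ± 0.98 (edgeR adjusted p = 0.0605, and 0.1 without new starved replicate 2). It rests on 2 counts in new starved against 28 in new control libraries, a control over starved ratio of 12.6 (exact 95% interval 3.17 to 109). The interferon-regulated gene irf1b, at 4.39 ± 1.02 (edgeR adjusted p = 0.0764), was called without that library (6.67, 0.0254).

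Some well-known somatic markers had large responses in the new batch and a difference that was not called. The smooth muscle actin gene acta2 had 0.576 and 0.158 CPM in old starved, 1.22 to 7.82 CPM in old control, 0.161 and 0.00 CPM in new starved, and 10.8 and 12.8 CPM in new control libraries. Starved libraries were low in both batches, with a difference of 3.55 ± 1.66 (edgeR adjusted p = 0.493). The smooth muscle myosin gene myh11a differed by 2.24 ± 0.68 (edgeR adjusted p = 0.209), with 3.46 and 7.26 CPM in old starved, 4.36 to 14.3 CPM in old control, 2.25 and 3.65 CPM in new starved, and 18.3 and 28.8 CPM in new control libraries. The fibronectin gene fn1b differed by 2.34 ± 0.87 (edgeR adjusted p = 0.348) and the granulosa transcription factor gene foxl2b by 2.57 ± 1.05 (0.397). For fn1b the levels were 7.78 and 7.89 CPM in old starved, 7.005 to 21.8 CPM in old control, 7.56 and 13.7 CPM in new starved, and 76.3 and 88.8 CPM in new control libraries, so that new control was again the high group. Other markers of the same lists moved less. The more abundant fibronectin gene fn1a had 382 and 274 CPM in new starved and 471 and 424 CPM in new control libraries. Its new response was -0.45 ± 0.21 (edgeR adjusted p = 0.224), with a difference of 0.64 ± 0.28 (0.441). For tpm1 of the smooth muscle list the new response was -0.30 and the difference 0.46 ± 0.22 (edgeR adjusted p = 0.511). In that list 3 of 14 new responses were above 0. The difference of these genes was not called, which does not show that the batches responded alike.

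The median of several lists changed sign without new starved replicate 2. Over all genes tested the median was -0.03, with 0.06 without new starved replicate 1 and 0.01 without replicate 2. It changed sign in 6 of 32 alternative settings, among them the fits without new starved replicate 1 and without new starved replicate 2. The 23 oocyte genes had a median difference of -0.25, which was 0.06 without new starved replicate 2. The 82 cytosolic ribosome genes had -0.14 and 0.32, and the 86 oxidative phosphorylation genes -0.16 and 0.12. The 41 proteasome genes had -0.14 and 0.00, the 9 egg coat genes -0.13 and 0.11, and the 42 cell cycle genes -0.08 and 0.13. Without new starved replicate 1 these medians were -0.495, -0.496, -0.404, -0.297, -0.466 and -0.165 in the order given. Other lists also changed sign without new starved replicate 2. The 9 motile cilia genes went from -0.557 to 0.641 (-0.774 without replicate 1), and the 6 skeletal and cardiac muscle genes from -0.588 to 0.142 (-1.015). The 28 Wnt genes went from 0.09 to -0.136 (0.355), and the 25 fatty acid and triglyceride synthesis genes from -0.042 to 0.035 (0.105). The medians of the 13 meiosis genes (0.13 and 0.40) and the 74 mitochondrial ribosome genes (0.02 and 0.12) kept their sign without new starved replicate 2. They were not steady in other settings. The meiosis median changed sign in 8 of the 32 (-0.06 on scaled CPM, pseudocount 1). The mitochondrial ribosome median did so in 2 (-0.08 without new starved replicate 1). Each list had 0 called genes. The summed oocyte level was 9689 to 9876 CPM in old starved, 7740 to 9274 CPM in old control, 8813 and 15350 CPM in new starved, and 7784 and 8878 CPM in new control libraries. For zar1, a maternal effect gene of the oocyte, the new starved libraries had 675 and 1796 CPM, against 740 and 737 CPM in old starved, 471 to 684 CPM in old control and 668 and 599 CPM in new control libraries. Its difference was -0.64 ± 0.43 (edgeR adjusted p = 0.677), and 0.21 without new starved replicate 2. The oocyte growth factor genes bmp15 and gdf9 differed by -0.52 ± 0.18 and 0.22 ± 0.17 (edgeR adjusted p = 0.317 and 0.721). In Pachón fish the median batch difference was -0.18 for oocyte, -0.33 for cytosolic ribosome and -0.23 for oxidative phosphorylation genes. Proteasome, egg coat and cell cycle genes had -0.13, -0.38 and -0.10 there. Meiosis and mitochondrial ribosome genes had -0.10 and -0.12, of the other sign to surface fish in the fit over all libraries. Over all genes tested the Pachón median was 0.03.

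**Figure D4:**
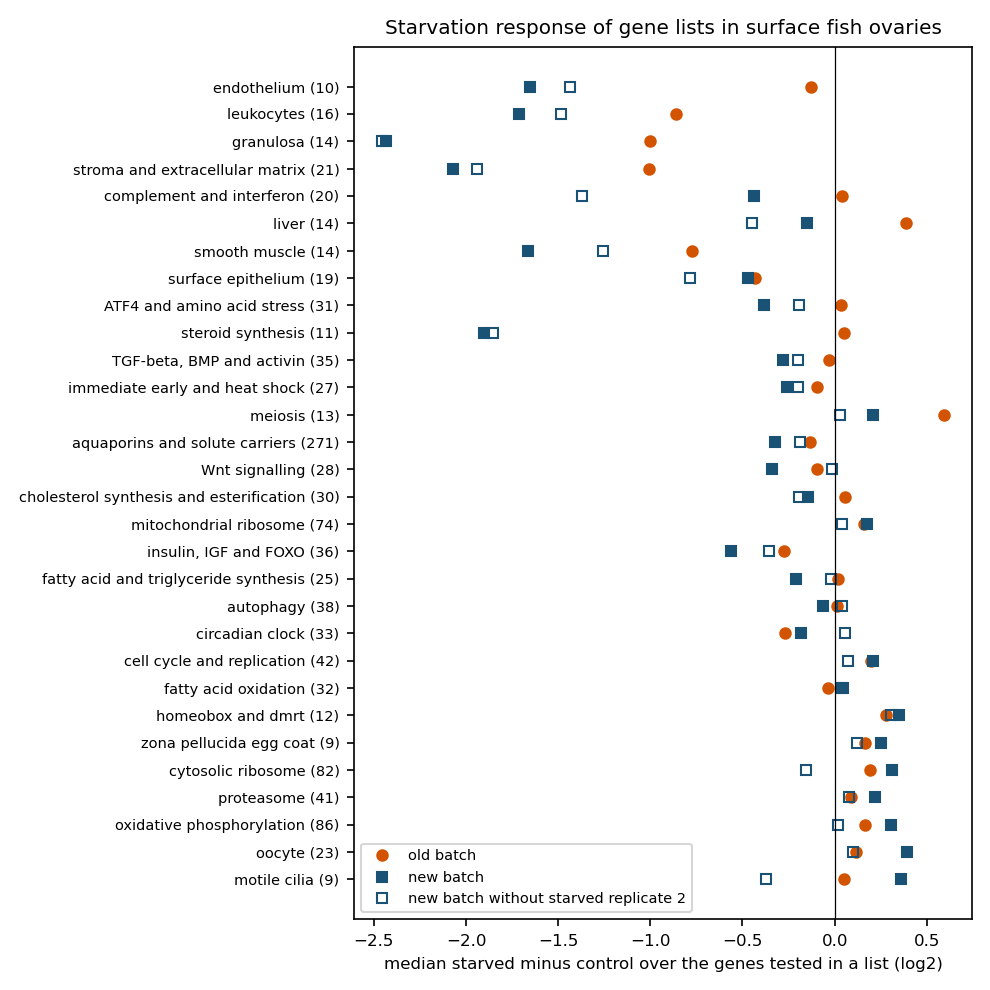
Median starved minus control (x axis, log2) over the tested genes of each list with at least 9 of them (number in brackets), in the old batch (orange circles) and the new batch (blue squares, open without new starved replicate 2). The steroid synthesis and endothelial lists lie at -1.90 and -1.65 in the new batch, and the open squares of the cytosolic ribosome, oxidative phosphorylation and oocyte lists lie left of the filled ones.

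The insulin, fatty acid, cholesterol, amino acid stress and autophagy lists had 0 genes called for the batch difference. The 36 tested insulin, IGF and FOXO genes had a median difference of 0.00, with 18 above 0. Their median responses were -0.28 (old batch) and -0.56 (new batch). The median difference was not steady, at 0.49 without new starved replicate 1 and -0.13 without new starved replicate 2. It changed sign in 16 of the 32 alternative settings. An unadjusted edgeR p under 0.05 was found in 8 of these 36 genes, against 9.93% of all genes tested. The same held for 5 of 30 cholesterol, 5 of 31 amino acid stress and 4 of 38 autophagy genes. In the fatty acid lists it held for 4 of 25 synthesis and 3 of 32 oxidation genes. The glucocorticoid receptor gene NR3C1, a symbol on 2 gene rows (ENSAMXG00000039789 here), differed by 3.11 ± 0.76 (edgeR adjusted p = 0.1). It had 7.63 and 8.84 CPM in old starved, 1.22 to 6.49 CPM in old control, 0.483 and 1.07 CPM in new starved, and 3.04 and 3.40 CPM in new control libraries, so starved libraries were the highest of the old batch and the lowest of the new batch. The other row, nr3c1 (ENSAMXG00000011646), differed by -0.51 ± 0.43 (edgeR adjusted p = 0.761), with 5.62 and 4.89 CPM in old starved, 6.98 to 13.6 CPM in old control, 10.1 and 5.58 CPM in new starved, and 12.5 and 11.3 CPM in new control libraries. Its starved libraries lay below controls in each batch. Of the insulin, IGF and FOXO list, akt3a and AKT1 differed by -2.02 ± 0.55 and -0.57 ± 0.15 (edgeR adjusted p = 0.143 and 0.115). The autophagy protease gene atg4da differed by -2.62 ± 0.59 (edgeR adjusted p = 0.0647) and was called without new starved replicate 2 (-3.02, 0.0231). The value of the fatty acid binding gene fabp1a moved with that library, with a difference of -3.11 ± 1.16 (edgeR adjusted p = 0.345) and -1.27 without it. It had 13.97 and 15.1 CPM in old starved, 5.62 to 11.7 CPM in old control, 1.13 and 7.30 CPM in new starved, and 0.169 and 0.324 CPM in new control libraries.

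In Pachón cavefish the same contrast over 12 libraries called 0 genes (0.0%) in edgeR, with 481 genes (3.08%) at an unadjusted p under 0.05. DESeq2 and voom with sample weights called 1 gene each, and limma on scaled CPM called 0. Of the 55 genes called in surface fish, 2 had an unadjusted p under 0.05 in Pachón fish and 26 had the same sign. Their median absolute difference was 3.05 in surface fish, where it chose them, and 0.27 in Pachón fish, against 0.33 and 0.23 over all genes tested. Some of the 55 had few counts in Pachón fish. In the Pachón new starved and new control groups col28a1a and SLC30A8 had 0 counts. Pachón group means of frem1b, IRAG1, PDE1C and trpc1 were at most 3.285 CPM. For such genes the Pachón values cannot show that a difference is absent. The difference between morphs, surface minus Pachón, was tested itself and called 2 genes, both lower (0.0128%), with 926 genes (5.93%) at an unadjusted p under 0.05. These were FAM83B (-4.03) and FAM171B (-3.41) (edgeR adjusted p = 0.0381 for each).

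Pachón levels of FAM83B were 72.4, 93.5, 73.3 and 57.7 CPM in old starved, 49.7, 74.6, 71.9 and 69.3 CPM in old control, 46.7 and 68.8 CPM in new starved, and 67.7 and 71.1 CPM in new control libraries. Pachón levels of FAM171B were 23.8, 27.1, 26.4 and 27.2 CPM in old starved, 22.6, 26.6, 16.2 and 19.9 CPM in old control, 17.6 and 29.1 CPM in new starved, and 18.6 and 15.5 CPM in new control libraries. No Pachón group was near the 1.30 and 2.53 CPM of FAM83B in old starved surface fish, or the 2.71 and 3.40 CPM of FAM171B in new control surface fish. These calls were not firm. Adjusted p lay between 0.0019 and 0.199 for FAM83B, called in 8 of the 22 fits that left out 1 library, and between 0.0138 and 0.199 for FAM171B, called in 10. With new starved replicate 2 left out it was 0.0237 for FAM83B and 0.0233 for FAM171B. For the other 53 genes called in surface fish, a batch difference particular to surface fish was not shown.

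The number of genes called for the surface batch difference depended on single libraries. Without new starved replicate 2 it was 172, with 41 of the 55 among them, and without new starved replicate 1 it was 515, with 51 of the 55. In both cases the remaining new starved library is taken to vary like the other groups. On the surface libraries alone and without new starved replicate 2, a setting added after the data were seen, edgeR gave 0 calls (2117 genes had an unadjusted p under 0.05, and the smallest adjusted p was 0.0996). The count was 24 without old starved replicate 2 (16 of the 55), 30 without new control replicate 2 (23 of the 55), 84 without old control replicate 3 (52 of the 55), and 33, 34 and 34 without Pachón old control replicate 4, new starved replicate 1 and new starved replicate 2. Pachón new control replicates 1 and 2 left 35 and 36 when taken out. Of the 24 named genes, 6 were called in each of the 22 fits, namely thbs3b, DOCK2, frem1b, FAM83B, FAM171B and sri. Of all 55 genes 10 were, among them gnpda1, a glucosamine-6-phosphate deaminase gene (1.21 ± 0.19, edgeR adjusted p = 0.00862), and the tyrosine phosphatase gene ptp4a1 (-1.04 ± 0.15, 0.00431), both picked after their values were seen. No called gene changed sign in any of these fits.

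**Figure D5:**
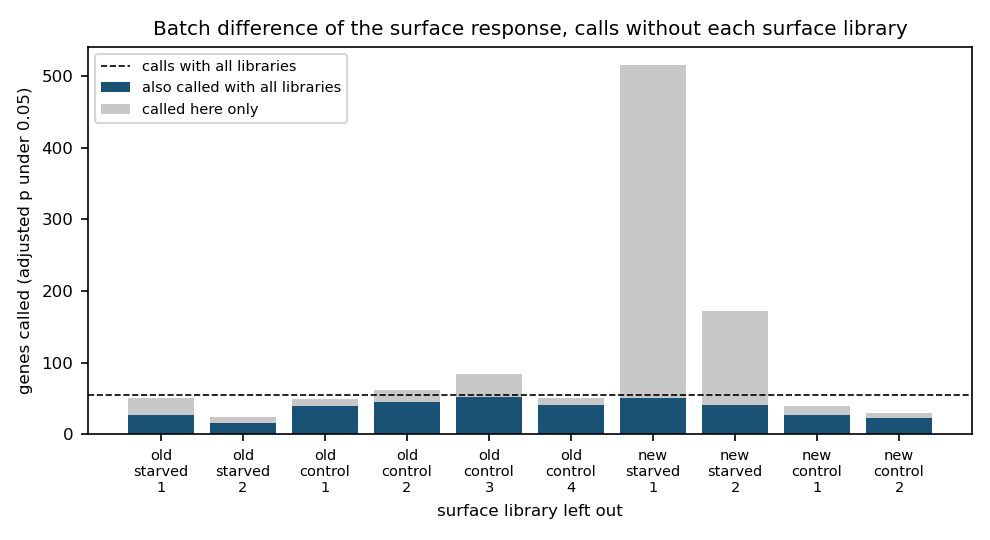
Genes called for the surface batch difference (y axis) when each of the 10 surface libraries was left out (x axis), split into genes also called with all libraries (blue) and others (grey), with the 55 calls of the full fit as a dashed line. Counts were highest without new starved replicate 1 (515) and replicate 2 (172), and lowest without old starved replicate 2 (24).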

How the data were processed

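Ovary RNA of 22 fish libraries was analysed, grouped by morph, batch and treatment as their titles give these. Per the labels' protocols, total RNA was depleted of ribosomal RNA and made into strand-aware libraries. STAR 2.7.10b and RSEM appear in the submitters' processing notes, which do not give their roles. The genome build, annotation and strand setting of the counting are unknown (not given in the sources used here). No coordinates are therefore given, and reads of overlapping or antisense genes may be mixed. The authors deposited whole-number counts per gene and library, which were used for all main tests, with 4 rows that name no gene left out (32.4% to 41.8% of a surface library's listed reads). The authors also deposited a scaled CPM signal per gene, used in 1 alternative.

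Counts were filtered with filterByExpr (minimum count 10, minimum total 15), TMM-normalized and fitted in edgeR 4.0.16 (R 4.3.3) with 8 group means over all 22 libraries, robust quasi-likelihood tests being 2-sided and adjusted over all 15607 genes (threshold 0.05). The pooled fit has 14 residual degrees of freedom, against 6 for surface libraries alone. Changes are log2 values ± SE, and CPM is per 1000000 normalized gene counts. Alternatives used surface libraries alone, DESeq2 1.42.0 (its size factors in edgeR, and its own test), voom with sample weights and limma 3.58.1 on scaled CPM (pseudocount 1 or 0.25), no or a stricter filter (50 counts in 2 libraries), a replicate block, and each library left out. The scripts were run on 1 simulated data set, with changes placed only in surface old starved libraries and the spread pooled over all 22. Recovery was 17% of changes of log2 size 1, 62% of size 2, 75.5% of size 3 and 85.7% of size 4, with 6 false calls. The wider spread of the new starved pair was not simulated, so this run is no check of the calls above.

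The members and the lists were chosen with earlier results of these data known. Named genes are, among called genes with a symbol and a mean log2 CPM of at least 1 over surface libraries, the 12 greatest differences in each direction, up to 3 members of each of 35 lists with the smallest p, and a few standard ovary genes. Some list members within this rule are left unprinted. Lists are described by counts and medians, with no list test.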

Additional observations from a re-analysis of the deposited data

Results flagged for a closer look

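The surface starvation response differed between the old and the new batch in 55 genes, and this difference itself differed between surface fish and Pachón cavefish in FAM83B (-4.03) and FAM171B (-3.41), which is why these results are listed here.

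Among the 24 named genes, 72 groups of 4 libraries were examined for a library far from the other 3, and 6 had one. Chance alone would pick out about 1 in 20 such groups. In Pachón fish, tfap2e had 7.67 CPM in old control replicate 3 against 1.498 to 1.77 CPM in the other old controls, and adma had 3.71 CPM in old starved replicate 3 against 1.31 to 1.56 CPM in the others. IRAG1 had 1.71 CPM in Pachón old starved replicate 1 against 3.66 to 3.89 CPM, and thbs3b had 73.7 CPM in Pachón old starved replicate 2 against 66.9 to 67.2 CPM. In surface fish, frem1b had 54.5 CPM in old control replicate 4 against 31.5 to 33.2 CPM in the other old controls, and trpm4b.2 had 68.0 CPM in old control replicate 1 against 52.2 to 54.4 CPM.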

How the results depend on the processing

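With surface libraries alone, edgeR called 0 genes for the batch difference, 0 for the old and 0 for the new response, and also 0, 0 and 0 when new starved replicate 2 was left out as well, a setting chosen after seeing the data. DESeq2 called 193, 301 and 1116 genes, 1 for the Pachón difference and 45 for the morph difference, and voom with sample weights 0, 78, 3, 1 and 0 in the same order. The pooled fit gave 55, 23, 652, 0 and 2. Limma on scaled CPM called 40 (pseudocount 1) and 70 (0.25) genes for the old response and 0 and 1 for the morph difference. No filter on low counts gave 1 gene for the Pachón difference. Leaving out each library in turn gave 24 to 515 genes for the surface difference, 13 to 372 for the old response, 172 to 3613 for the new response, 0 to 1 for the Pachón difference and 0 to 33 for the morph difference. For the new response the count was 3613 without new starved replicate 1, 201 without replicate 2, and 231 and 172 without new control replicates 1 and 2. For the old response it was 367 and 372 without new starved replicates 1 and 2, 118 and 14 without old control replicates 2 and 3, 15 without old starved replicate 2, 13 without each of the 4 Pachón old controls, and 15 without each Pachón new starved library. The cause was not tested. The difference of zar1 (-0.64) was -1.19 to 0.21 with 1 library left out, above 0 only without new starved replicate 2 (0.21, and 0.22 in surface libraries alone). Over all alternatives, the values of single genes kept direction and side of the threshold in 1713 cases, lost a call in 226 and gained one in 24. These cases mix called and uncalled genes, and an uncalled gene that stayed uncalled is counted as kept. Only a called gene can lose a call, so the 1713 cases do not measure how steady the calls were. Same-numbered libraries did not deviate together (correlations of -0.19 to 0.11 in surface and -0.17 to 0.06 in Pachón groups), so the replicate numbers were not taken to pair them. A replicate block gave 24 genes for the surface difference, 8 for the old response and 0 for the morph difference. Groups of 2 libraries and, for genes with few counts, the depth limit the precision.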
